A study of Mus musculus with 8 samples.

Results

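The 42 genes described here encode subunits and partners of the Polycomb repressive complexes, members and partners of the MLL (KMT2) family, and enzymes that reverse Polycomb marks. They were chosen by name and role, though with earlier results of these data known, and they are 42 of 21627 protein-coding genes. Open chromatin was mapped by ATAC-seq, in which a transposase cuts accessible DNA, in mouse bone marrow haematopoietic stem cells (HSCs). Peaks of 8 libraries that overlapped were merged into 90736 regions, and each region was given to the protein-coding gene whose span held its midpoint, or else to the nearest gene within 50 kb. By this rule 251 regions belonged to the 42 genes.

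The libraries formed 4 groups of 2. All carried Vav1-cre, a Cre transgene that is active in blood cells, and what the labels call iMOS, an abbreviation they do not spell out, either in its mutant form (iMOS_Bcl11aMUT, called MUT here) or in its wild-type form (iMOS_Bcl11aWT, called WT). Bcl11a encodes a zinc-finger transcription factor of blood cells, and the study asked what it does within HSCs and how its overexpression affects neighbouring wild-type HSCs. The MUT and the WT arm each had a T1 and a T2 population, sorted by flow cytometry. What separates T1 from T2, and the strain and sex of the mice, were not given in the sources used here. Genotype below therefore means the MUT or WT arm, since the labels do not say whether its T1 and T2 cells carry the same form. The mice were 2 to 3 months old by the sample labels and 3 months by the design text, and 5000 nuclei were tagmented per library. Nothing said that replicates, or T1 and T2 libraries, came from different animals, so the spread between libraries may be technical in part. With 2 libraries per group no test per region was made: calls and values below are descriptions, and a region absent from a list may have been open below the calling threshold.

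Polycomb repressive complex 2 (PRC2) methylates histone H3 on lysine K27, and Polycomb repressive complex 1 (PRC1) holds the ligases that ubiquitinate histone H2A; both marks accompany silenced genes. The MLL complexes methylate histone H3 on lysine K4 at promoters and enhancers, and work against Polycomb silencing at Hox and other developmental genes. HSC self-renewal and leukaemia are known to depend on members of both groups.

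The peak lists held 62232 to 74785 peaks each (69760 ± 4720, SD, n = 8). The genome-wide background that the peak caller used, which scales with the number of fragments in a library, could be recovered from the files and ran from 1.89 to 3.38 stacked fragments. The lowest 3 values belonged to WT T2 replicate 2 (1.89), MUT T1 replicate 2 (2.03) and WT T2 replicate 1 (2.45). Both WT T2 libraries were therefore among the shallowest, and the MUT T1 pair was uneven. All 12 HSC marker genes examined had a region at a gene end in all 8 libraries, against 1 of 6 T cell, 1 of 6 neutrophil and monocyte, 2 of 6 B cell, 4 of 6 erythroid and 5 of 6 endothelial or stromal markers. No library had a peak at a gene end of Cd3e, Cd3g, Cd8a, Rag1, Elane, S100a8, S100a9, Ly6g, Hba-a1 or Cdh5.

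Nearly every member gene was open at an end of its span in every library. A gene-end region was a region that reached within 1 kb of either end of the span. 41 of the 42 genes (97.6%) had one called in all 8 libraries, where 64.8% of all protein-coding genes did. Of the 34 members whose transcript starts are in the RefSeq start table used, all 34 had a listed start covered by a region called in all 8 libraries, against 63.2% of 17273 genes in that table. The other members, Ash2l, Cbx2, Kdm6b, Kmt2b, Kmt2e, Pcgf1, Psip1 and Rybp, are not in it.

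The 250 bases before the listed start are printed for 6 members, to show the DNA inside these constitutively called regions: Mtf2 and Phf1, with fold enrichment among the highest, Jarid2, with one of the lower values, Pcgf3 and Men1, which hold the TGACCA letters known for BCL11A, and Eed, the gene nearest to the region called in MUT libraries alone. Each lies whole within a region called in all 8 libraries. Sequences are from RefSeq, GRCm38.p6, 5′ to 3′ on the strand of the gene; capitals mark GGGCGG, the letters bound by SP and KLF factors, and TGACCA, on either strand (CCGCCC and TGGTCA are their reverse complements). The positions are chr5:108065424-108065673 (plus strand), chr17:26932877-26933126 (plus), chr5:108461009-108461258 (plus), chr19:6334729-6334978 (plus), chr7:89980977-89981226 (minus) and chr13:44730524-44730773 (plus).
Mtf2: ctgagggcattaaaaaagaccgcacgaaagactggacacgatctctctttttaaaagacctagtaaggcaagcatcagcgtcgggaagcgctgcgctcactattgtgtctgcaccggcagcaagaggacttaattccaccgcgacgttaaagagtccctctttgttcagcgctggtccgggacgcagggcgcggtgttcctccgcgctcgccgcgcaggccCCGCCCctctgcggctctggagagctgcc
Phf1: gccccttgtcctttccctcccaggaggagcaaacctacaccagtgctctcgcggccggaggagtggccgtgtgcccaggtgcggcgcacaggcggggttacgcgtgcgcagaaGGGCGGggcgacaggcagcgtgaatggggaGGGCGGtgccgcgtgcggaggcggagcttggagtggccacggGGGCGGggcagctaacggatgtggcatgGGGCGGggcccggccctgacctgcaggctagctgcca
Pcgf3: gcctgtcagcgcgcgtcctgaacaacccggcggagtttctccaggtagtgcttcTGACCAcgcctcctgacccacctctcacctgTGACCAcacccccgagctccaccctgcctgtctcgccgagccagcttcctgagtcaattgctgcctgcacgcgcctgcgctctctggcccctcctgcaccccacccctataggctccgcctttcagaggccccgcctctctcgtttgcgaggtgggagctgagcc
Men1: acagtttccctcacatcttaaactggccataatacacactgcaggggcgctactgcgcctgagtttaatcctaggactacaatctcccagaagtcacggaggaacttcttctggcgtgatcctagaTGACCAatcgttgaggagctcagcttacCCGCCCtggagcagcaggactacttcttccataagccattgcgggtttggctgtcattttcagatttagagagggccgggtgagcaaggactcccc
Eed: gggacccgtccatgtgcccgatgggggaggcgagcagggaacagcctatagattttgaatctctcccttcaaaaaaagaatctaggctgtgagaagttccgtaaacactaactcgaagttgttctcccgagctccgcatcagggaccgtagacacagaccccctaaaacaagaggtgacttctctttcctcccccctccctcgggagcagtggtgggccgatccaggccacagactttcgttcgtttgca
Jarid2: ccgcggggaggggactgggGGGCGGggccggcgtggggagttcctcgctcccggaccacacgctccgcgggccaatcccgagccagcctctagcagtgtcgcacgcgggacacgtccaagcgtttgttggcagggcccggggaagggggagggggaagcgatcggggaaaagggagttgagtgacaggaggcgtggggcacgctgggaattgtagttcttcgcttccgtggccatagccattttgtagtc
Phf1 holds 4 GGGCGG matches in this stretch, and Mtf2, Men1 and Jarid2 hold 1 each. Pcgf3 holds 2 TGACCA matches and Men1 holds 1. Eed holds neither motif.

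Over the whole 300-base windows, which run from 250 bases before to 50 after the start, GGGCGG on either strand was in 25 of the 34 member windows (73.5%), against 46.9% of the 17273 windows. The median number of CpG dinucleotides was 24 in member windows and 14 over all. TGACCA was in 5 member windows (14.7%), those of Pcgf3, Men1, Asxl2, Cbx7 and Kmt2d, against 12.6% of all windows. The ETS letters CCGGAAG were in 2 (5.88%, against 12%), CCAAT, known for NF-Y, in 9 (26.5%, against 39.4%), the E2F letters TTCCCGC in 3 (8.82%, against 6.06%), the RUNX letters TGTGGTT in 2 (5.88%, against 4.87%) and the GATA letters AGATAA in 0 (against 10%). The GGGCGG letters hold a CpG, so that count and the CpG count are not separate facts. A match shows that these letters are present, not that a factor bound them.

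The exception at gene ends was Cbx7, a chromobox reader of methylated H3. The region at the lower end of its span was called in 7 libraries, at 2.72 to 3.59, while the region over its listed start, 16.9 kb inside the span, was called in all 8 with fold enrichment of 4.26 to 6.35. Fold enrichment is the authors' deposited value per peak, the height of the peak over its local background, and is used here to describe and to rank regions; the strongest peak of a library stands for a region. For 29 members the strongest gene-end region lay over a listed start. There the summit lay at a median of 1 base upstream of the start (−1 bp; range over genes −924 to 843 bp), and in 24 of the 29 genes it was within 250 bp. For Pcgf2, Phf19, Men1 and Kmt2d the strongest gene-end region was at no listed start. The regions over the listed starts of Pcgf2, Men1 and Kmt2d were at 2.81 to 3.52, 5.21 to 8.29 and 6.10 to 7.55. The regions at the ends of Pcgf2, Cbx6, Bap1 and Ash2l were given by the midpoint rule to the neighbours Psmb3, Npcd, Phf7 and Kcnu1, and 10 of the 41 gene-end regions also reached the end of another gene, so their signal cannot be told apart between both genes.

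**Figure D1:**
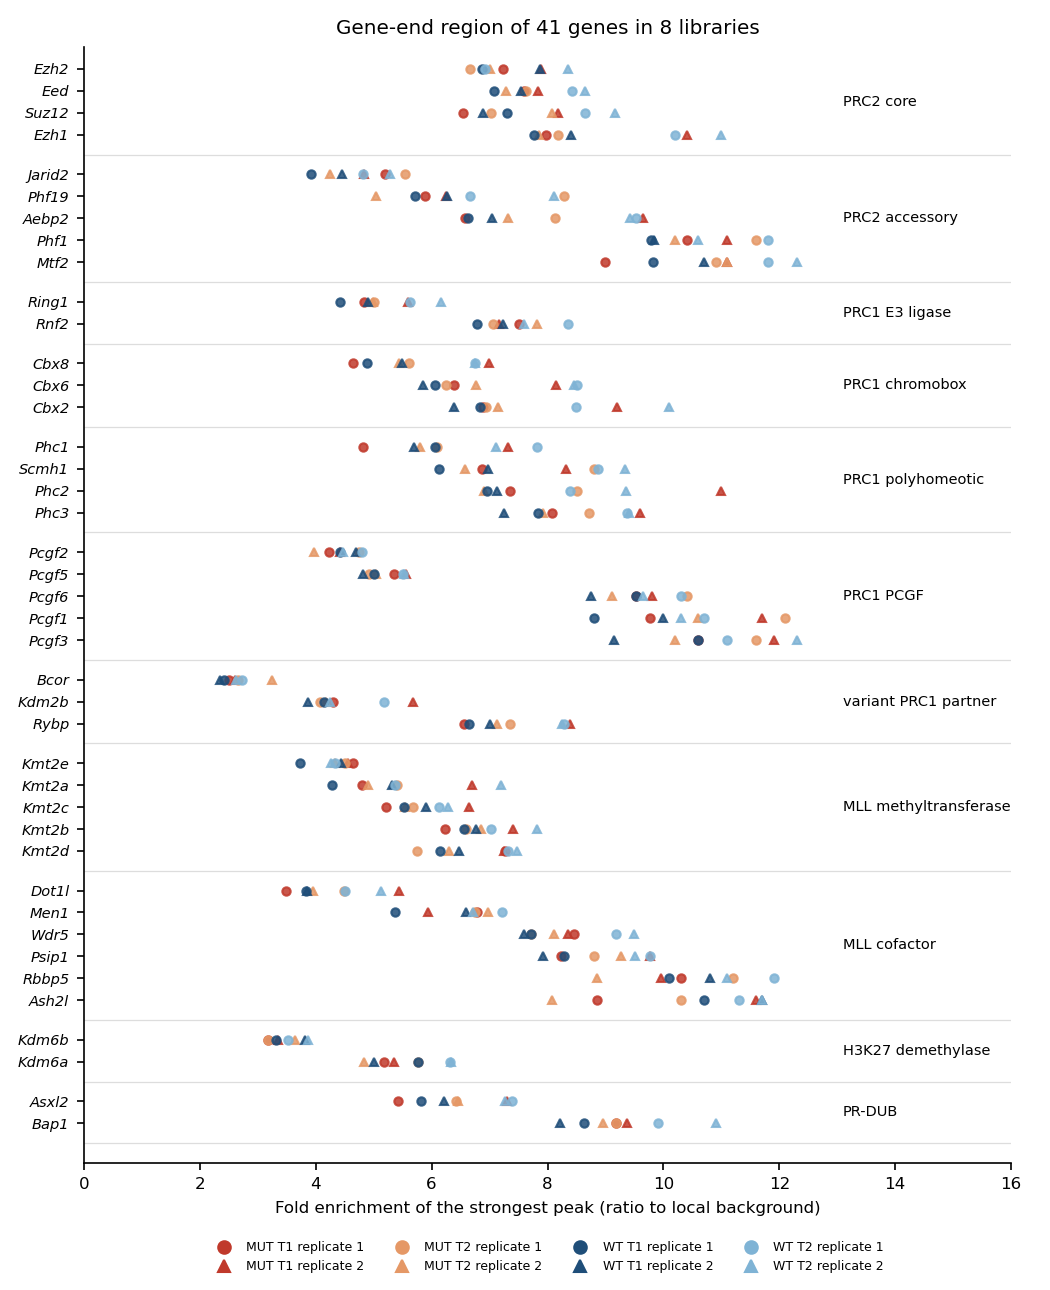
Fold enrichment (ratio of peak height to local background, linear axis) of the strongest gene-end region of 41 genes, grouped by role. Each point is 1 library, coloured by group and shaped by replicate; Bcor sits lowest at 2.34 to 3.25 and Mtf2 reaches 12.3.

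The genes of the PRC2 core had similar gene-end values. Ezh2, the main H3 methyltransferase, was at 7.24 and 7.88 (MUT T1), 6.66 and 7.01 (MUT T2), 6.87 and 7.87 (WT T1), and 6.92 and 8.35 (WT T2). Eed, which binds the methylated histone, was at 7.60 and 7.84 (MUT T1), 7.63 and 7.28 (MUT T2), 7.07 and 7.54 (WT T1), and 8.43 and 8.64 (WT T2). For Ezh2 the MUT T2 pair lay below the MUT T1 pair and the other groups overlapped, and for Eed the WT T2 pair lay above the other 6 libraries. Suz12, the scaffold subunit, ranged from 6.54 to 9.16, and Ezh1, the second methyltransferase of the complex, from 7.77 to 11.

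The PRC2 accessory genes spread more widely. Mtf2, a Polycomb-like protein that brings PRC2 to CpG islands, had the highest median, 11: 9 and 11.1 (MUT T1), 10.9 and 11.1 (MUT T2), 9.82 and 10.7 (WT T1), and 11.8 and 12.3 (WT T2). Phf1, from the same family, had a median of 10.5 and a range of 9.79 to 11.8. Jarid2, which links PRC2 to DNA and nucleosomes, was lower at 3.92 to 5.54, Phf19 was at 5.04 to 8.28 and Aebp2 at 6.58 to 9.65. Phf19 had regions at both ends: the one over its listed start, which the summary value leaves aside, had a median of 6.15 against 6.25 at the other end.

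Among PRC1 genes, the PCGF subunits, which define the different PRC1 assemblies, split by fold enrichment. Pcgf3 (median 10.8), Pcgf1 (10.4) and Pcgf6 (9.59) stood at 8.75 or more in every library. Pcgf5 (5.20) and Pcgf2 (4.44, at the end shared with Psmb3) stood at 5.55 or less in every library. The ligases Ring1 and Rnf2 had ranges of 4.42 to 6.17 and 6.79 to 8.35, which did not overlap. Cbx2, Cbx6 and Cbx8 had medians of 7.04, 6.57 and 5.55. The polyhomeotic genes, whose proteins polymerise through their SAM domains, had medians of 6.08 (Phc1), 7.88 (Phc2) and 8.40 (Phc3), and Scmh1, which carries the same kind of domain, 7.65.

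The partners of variant PRC1 held the lowest value of all. Bcor, a corepressor that binds PCGF1, was at 2.50 and 2.60 (MUT T1), 2.65 and 3.25 (MUT T2), 2.41 and 2.34 (WT T1), and 2.73 and 2.62 (WT T2). Within each library this put the Bcor start between percentiles 0.313 and 4.14 of all peaks. Kdm2b, which recruits PRC1 to unmethylated CpG islands, ranged from 3.87 to 5.67, and Rybp, which stimulates the ligase, from 6.55 to 8.38.

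Of the MLL (KMT2) family genes, Kmt2d was at 5.74 to 7.48, at the end shared with Prkag1, and Kmt2b at 6.23 to 7.82. Kmt2c ranged from 5.21 to 6.65, Kmt2a from 4.28 to 7.19 and Kmt2e from 3.73 to 4.64. The genes grouped here as MLL cofactors and partners ran from one end of the scale to the other. The shared core subunits Ash2l (8.08 to 11.7), Rbbp5 (8.85 to 11.9) and Wdr5 (7.60 to 9.49) were high. So was the chromatin tether Psip1 (7.93 to 9.77). Men1, encoding menin, was at 5.37 to 7.21 at the end shared with Map4k2, and Dot1l, the H3K79 methyltransferase, at 3.48 to 5.43. The region counted for Ash2l is the one it shares with Kcnu1; another, 6.73 kb inside Ash2l, was called in all 8 libraries at 7.86 to 10.7. The H3K27 demethylase genes Kdm6b (3.17 to 3.87) and Kdm6a (4.83 to 6.34) did not overlap. Bap1 and Asxl2, of the complex that removes ubiquitin from H2A, were at 8.21 to 10.9 and 5.42 to 7.38.

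The median gene-end value of the members was 7.04, against 7.76 over all gene-end regions called in all 8 libraries. Their gene-end regions were wider, with a median of 1660 bp (707 to 2770) against 1260 bp. The member medians take only the strongest region of each gene, while the wider set pools every gene-end region, so the sets are not alike. Low fold enrichment at a member gene end did not always go with a low pileup. The fragments stacked under each peak and the local background were recovered from the fold enrichment and the deposited −log10 p, and divided by the genome-wide background of the library. At the Kdm6b gene end the pileup was 45.5 times and the local background 13.2 times the genome-wide background (medians of 8 libraries). Dot1l had 48.8 and 11.5, and Mtf2 47.8 and 4.20. The PCGF genes did not split in pileup, with 54.8 (Pcgf3), 58 (Pcgf1), 41.8 (Pcgf6), 49.9 (Pcgf5) and 51.9 (Pcgf2). Ring1 and Rnf2 had pileups of 42.5 and 43.3.

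Mtf2, Kdm6b and Dot1l thus had nearly equal pileups and fold enrichment of 11, 3.43 and 4.22. Bcor was low on both counts, with a pileup of 23.6 and a local background of 8.86, and Ash2l had a pileup of 22.8 over a local background of 1.74. Over the 41 genes Spearman's rho between fold enrichment and local background was −0.779, and between fold enrichment and pileup 0.0484. These are descriptions across genes measured in the same 8 libraries, and fold enrichment has the local background in its denominator. The median local background at gene ends was 6.45 times the genome-wide one for members and 4.22 times for all gene-end regions called in all 8 libraries. The median pileup was 47.8 and 37.2 times. Here too the members are given by their strongest region alone and the wider set by every gene-end region.

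**Figure D2:**
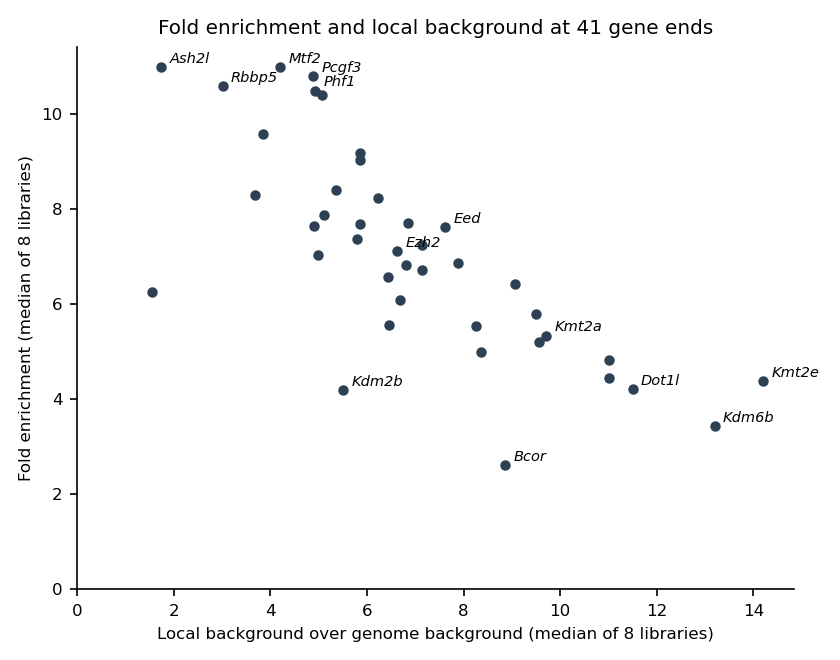
Fold enrichment against local background, given as a multiple of the genome-wide background, at the strongest gene-end region of 41 genes; each point is a gene and the median of 8 libraries, on linear axes. Points fall from upper left (Ash2l, Rbbp5, Mtf2) to lower right (Kdm6b, Kmt2e), with Bcor below the rest.

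Beyond the gene ends, 209 of the 251 member regions were distal, 139 inside a span and 70 outside. In all 8 libraries 142 of the 251 (56.6%) were called, against 54.6% of all regions, and 36 (14.3%) were called in 1 library, against 11.6%. Of the distal regions 102 (48.8%) were called in all 8, against 48.1% of all regions away from the ends of every gene. These sets were not drawn up alike. A member region was distal if it was not at an end of its own gene, so it could lie at the end of another gene. Some lay over a listed start inside the span, as in Cbx7 and Phc2. With that limit, the distal share of the members was near that of the wider set. Members had a median of 4.5 regions, against 3 for all genes with a gene-end region in all 8 libraries, and their spans were longer, with a median of 37.9 kb against 22.5 kb for the latter genes and 17.3 kb for all protein-coding genes. The number of regions rose with span in both sets (Spearman's rho 0.736 over 42 genes and 0.598 over the genes with a gene-end region in all 8 libraries).

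**Figure D3:**
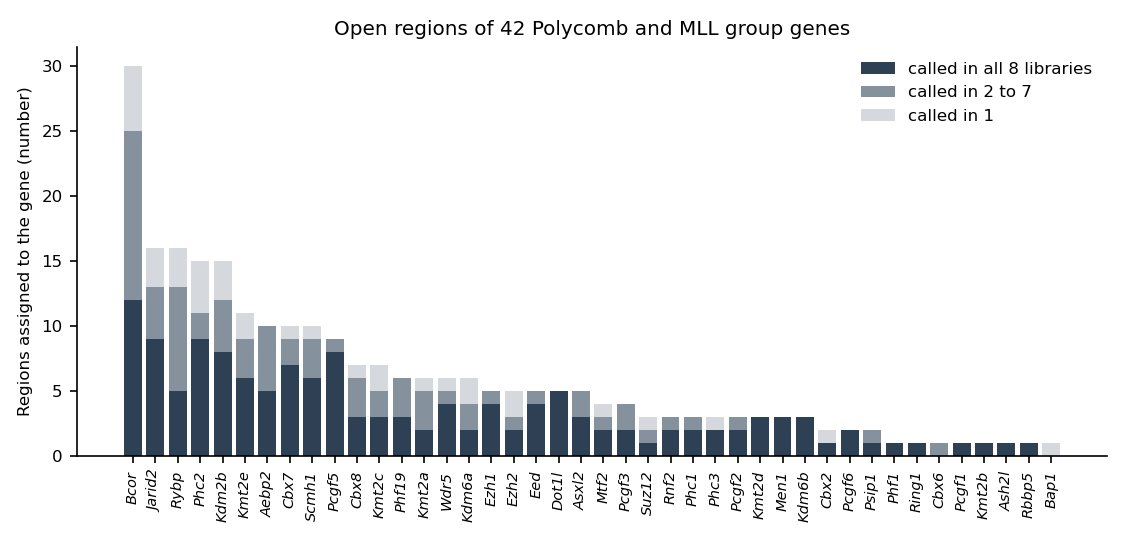
Number of regions given to each of the 42 genes, as stacked bars from 0: called in all 8 libraries, in 2 to 7, and in 1. Bcor has 30 regions, of which 12 were called in all 8.

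Bcor had the most regions, 30, with 12 called in all 8 libraries. Jarid2 and Rybp had 16 each (9 and 5 in all 8), and Phc2 and Kdm2b 15 each (9 and 8). Of the Bcor regions called in all 8, the 8 inside the span had a median fold enrichment of 2.97 (2.24 to 6.66) and the 4 outside 5.68 (3.94 to 7.75). The local background was 2.85 to 9.45 times the genome-wide one at the regions inside and 1.00 to 5.78 times at those outside. Bcor and Kdm6a are on chromosome X.

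The strongest distal regions called in all 8 libraries exceeded most gene ends. A region 24 kb outside Scmh1 was at 11 and 12.9 (MUT T1), 15.1 and 13.5 (MUT T2), 15.5 and 15.1 (WT T1), and 14.3 and 15.0 (WT T2). One 6.13 kb outside Phc3 ranged from 10.4 to 16.5. One 14.3 kb inside Ezh1 ranged from 11.5 to 14.0, above the gene end of Ezh1 in every library. Others were 9.29 kb outside Pcgf5 (11.1 to 14.6), 55.1 kb inside Kdm2b (10.1 to 14.0, against 3.87 to 5.67 at its gene end) and 17.5 kb outside Scmh1 (9.58 to 13.4).

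Genotype was compared within T1 and within T2, by regions called in both libraries of one group and neither of the other. In T1, 2 member regions were called in MUT and not in WT (0.797%, against 1.26% of all regions). They lay 17.6 kb inside Phc2 and 38.9 kb outside Eed. In the other direction 3 were called in WT T1 and not in MUT T1 (1.2%, against 2.13%): 4.2 kb inside Phf19, 10.8 kb outside Psip1 and 7.47 kb inside Kmt2a. None of these was at a gene end. With so few regions these shares cannot be set apart from those of all regions, and with a −log10 q of at least 5 the count in MUT T1 alone was 4 (1.65%, against 1.2%).

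In T2, 10 member regions were called in MUT and not in WT (3.98%, against 3.95% of all regions). Inside spans they lay 25.2 kb into Rybp, 5.23 kb into Pcgf3, 23.6 kb into Kdm2b, 11 kb into Asxl2 and 19 kb into Kdm6a. Outside they lay 32.5 kb from Rybp, 28.2 kb from Phc1, 29.8 kb from Aebp2, 9.85 kb from Bcor and, as in T1, 38.9 kb from Eed. In the other direction 3 were called in WT T2 alone (1.2%, against 0.457%), 31.4 kb outside Aebp2 and 40.5 and 32.3 kb inside Bcor. All 13 were distal. WT T2 had the lower background (1.89 and 2.45, against 3.10 and 3.21 (MUT T2)), so the counts were repeated with the same number of peaks, the strongest, from each library. Then 3 were called in MUT T2 alone (1.4%, against 1.95% of all regions) and 6 in WT T2 alone (2.79%, against 1.65%). The order of the member counts turned around and that of all regions did not, but so few regions cannot set the members apart. Most of those in WT T2 alone were inside Bcor. With libraries thinned to the lowest depth the member counts were 8 and 4 (against 3.09% and 0.769% of all regions). They were 8 and 2 with a −log10 q of at least 5 (against 4.06% and 0.425%). Summit windows gave 11 and 4 (against 3.97% and 0.659%). In these settings the counts of members and of all regions had the same direction.

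**Figure D4:**
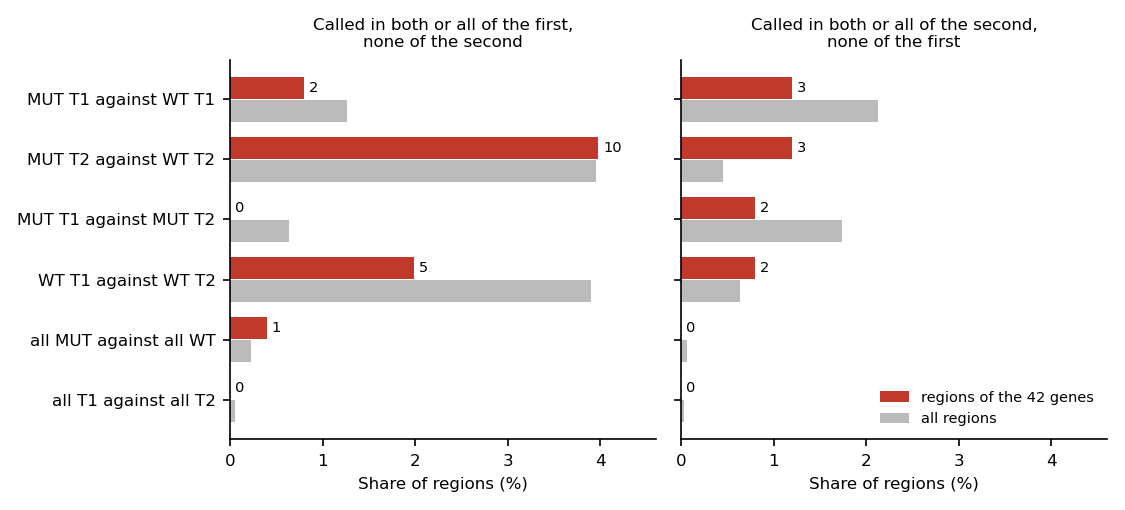
Share of regions (percent, from 0) called in every library of one side and none of the other, for the 251 member regions and for all 90736; digits are member counts. The member share is 3.98% and the share of all regions 3.95% for regions called in MUT T2 and not WT T2.

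One member region separated the MUT and WT arms in all 8 libraries. It was 488 bp long, at chr7:90019644-90020131, 38.9 kb outside the span of Eed, whose listed start is printed above. Its fold enrichment was 4.39 and 6.43 (MUT T1) and 4.19 and 5.02 (MUT T2), and it was called in no WT library.

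That is 1 of 251 member regions, against 0.222% of all regions, and 0 had the reverse pattern, against 0.0606%. The next genes were Hikeshi, 78.7 kb away, and Picalm, 110 kb away. With the same number of peaks in each library the call over all MUT and all WT libraries was lost, while it held with libraries thinned to the lowest depth and with a −log10 q of at least 5. The other regions of Eed did not share this pattern of calls. The gene end and 3 more regions, 17.5, 42.3 and 49.7 kb outside, were called in all 8 libraries, and the one at 42.3 kb was at 7.23 to 8.80 in MUT and 7.65 to 8.45 in WT.

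T1 and T2 were compared within each genotype; these comparisons share their libraries with the genotype comparisons above. Between MUT T1 and MUT T2, 0 member regions were called in T1 alone (against 0.641% of all regions) and 2 in T2 alone (against 1.74%), 5.23 kb inside Pcgf3 and 23.6 kb inside Kdm2b. Between WT T1 and WT T2, 5 were called in T1 alone (against 3.90%) and 2 in T2 alone (against 0.632%). The 5 were near Phf19, Psip1, Scmh1, Rybp and Aebp2, and the 2 inside Pcgf2 and Bcor. With the same number of peaks in each library these counts were 3 and 7 (against 2.17% and 1.78% of all regions). Their order turned around where that of all regions did not, but on few regions, several of those in T2 alone inside Bcor. Thinning gave 3 and 3 (against 2.86% and 1.07% of all regions). A −log10 q of at least 5 gave 4 and 1 (against 4.05% and 0.594%), and summit windows gave 6 and 4 (against 3.94% and 0.91%). Over both genotypes, 0 member regions were called in all T1 and no T2 libraries (against 0.0507%) and 0 in all T2 and no T1 libraries (against 0.0265%).

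Single regions show how the calls fell. The region 25.2 kb inside Rybp was called in 6 libraries, at 4.96 and 5.33 (MUT T1), 5.45 and 6.07 (MUT T2), and 5.18 and 4.75 (WT T1), and in neither WT T2 library. The Phf19 region was at 6.14 and 5.14 (WT T1) and at 6.28 in MUT T2 replicate 2, and was called in no other library. A region 31.4 kb outside Aebp2 was at 6.74 and 5.82 (WT T2), 3.92 in WT T1 replicate 2 and 5.57 in MUT T1 replicate 1. So even the regions named here were seldom split by genotype alone.

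**Figure D5:**
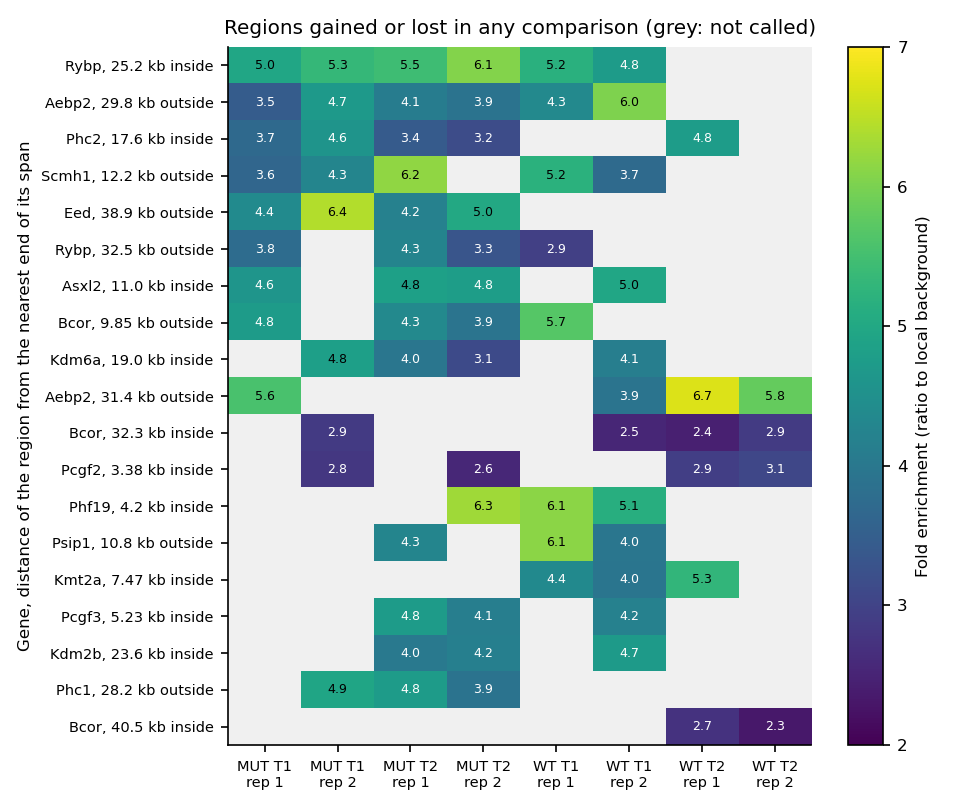
Fold enrichment (colour and digits) of the 19 member regions called in every library of one side and none of the other in any comparison, by library; grey cells were not called. The Eed region, at 38.9 kb, fills the 4 MUT columns and no WT column.

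Over the 142 member regions called in all 8 libraries, the values of 2 groups were called separate where they did not overlap. In T1, 28 regions were higher in MUT (against 16.1% of all such regions) and 14 lower (against 14.2%). Without MUT T1 replicate 2 they were 41 and 60, so the order turned around. Shares over all regions were not computed with a library left out, so this turn cannot be ascribed to the members. In T2, 8 were higher in MUT (against 6.40%) and 60 lower (against 43.9%). The median fold enrichment over all regions was also highest in the WT T2 libraries, 8.12 and 8.36 against 7.11 to 7.87 in the other 6. With each value divided by the median of its library, the T2 counts were 28 higher and 28 lower (against 18.4% and 21.9%).

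Between MUT T1 and MUT T2, 20 were higher in T1 (against 10.9%) and 12 lower (against 14.6%). This order also turned around without MUT T1 replicate 2 (29 and 69) and without MUT T2 replicate 2 (28 and 51), again with no share over all regions to set beside it. Between WT T1 and WT T2, 10 were higher in T1 (against 5.67%) and 78 lower (against 49.6%), and after division by the library median 26 and 34 (against 20.0% and 22.2%). Over all libraries, 0 were higher in all MUT than in all WT (against 0.573%) and 0 lower (against 2.46%). After that division 2 were higher (against 1.68%), the Pcgf1 gene end and a region 12.3 kb outside Aebp2, and 1 was lower (against 1.72%), 78.1 kb inside Kmt2c. Between all T1 and all T2, 0 were higher (against 0.260%) and 3 lower (against 2.97%): the Bcor gene end, a region 37.4 kb inside Bcor and one 26.5 kb inside Kmt2c. After division by the library median 2 were higher in T1 (against 1.41%), 88.1 kb inside Jarid2 and 25.4 kb inside Cbx7, and 1 was lower (against 1.25%), 41.2 kb inside Phc2. Undivided, the Bcor gene end ran from 2.34 to 2.60 in T1 and from 2.62 to 3.25 in T2, a gap far smaller than the spread within T2.

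Some X-linked regions followed the replicate number in every group rather than genotype or population. At the Kdm6a gene end the pileup over the genome-wide background was, for replicates 1 and 2 of each group, 23.0 and 49.1 (MUT T1), 28.9 and 39.0 (MUT T2), 27.8 and 48.9 (WT T1), and 34.3 and 68.6 (WT T2). The local background there was 4.22 to 5.10 times the genome-wide one in the replicates 1 and 7.81 to 10.4 times in the replicates 2. Both replicate sets were thus separate in pileup and in local background, and overlapped in fold enrichment (5.18 to 6.31 and 4.83 to 6.34).

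A region 25.1 kb inside Kdm6a had pileups of 10.6 to 16.3 times the genome-wide background in the replicates 1 and 21.1 to 25.3 times in the replicates 2. A region 4.78 kb outside Bcor was called in all 4 replicates 1, at 5.28 to 6.28, and in no replicate 2. It was the 1 member region of that kind (against 0.159% of all regions), and 0 had the reverse pattern (against 0.0397%). Over all X-linked regions 24 of 2012 were called in all replicates 2 and no replicate 1, against 12 of 88724 autosomal ones. In the direction of the Bcor region the shares were close, with 4 X-linked (0.199%) and 140 autosomal regions (0.158%). The lists held 11 to 17 peaks on chromosome Y in the replicates 1 and 3 to 6 in the replicates 2. The part of the animals' sex in these values was not tested. In fold enrichment 3 member regions were higher in all replicates 1 (against 0.797%), near Asxl2, Jarid2 and Bcor, and 1 in all replicates 2 (against 1.20%), near Scmh1. Each group held 1 library of each number.

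Related genes outside the 42 gave lower shares of open gene ends, on so few genes that the lists cannot be set apart. Of 26 further Polycomb partner genes, 23 (88.5%) had a gene-end region in all 8 libraries, and of 17 further partners of the MLL and DOT1L complexes 15 (88.2%) did. Those without one were Bcorl1, Usp7 and Sfmbt2, and Dpy30 and Aff3, though Bcorl1 and Usp7 had one in 7 and 6 libraries. Regions called in all 8 were 88 of 166 (53%) and 57 of 123 (46.3%) in these lists, against 56.6% for the 42 genes.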

How the data were processed

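ATAC-seq peaks of 8 libraries were analysed. Per the submitters' processing notes Bowtie2, SAMtools and MACS2 were used, on mm10; versions, the shift of reads to the cut site and the calling settings were not given in the sources used here. The authors deposited 1 peak list per library. Each deposited list gives, per peak, a fold enrichment (ratio of pileup to local background), −log10 p and −log10 q values and the offset of the summit. It also holds the authors' deposited score, a display value per peak, which was not used in any result. The files have no header and were read in the standard narrowPeak order. All peaks had a deposited −log10 q of at least 3.

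Peaks on the autosomes and X that overlapped by at least 1 bp were merged; genes were RefSeq protein-coding spans of GRCm38.p6. Pileup and local background were solved from the deposited fold enrichment and −log10 p, and the solution returned at least 99.9986% of the peaks of each library, with 5 to 7 very strong peaks per library left out; MACS2 adds 1 to both, which was assumed. Calls and recovery were checked on simulated data. The members and gene lists were chosen with earlier results of these data known. Named by rule were the 5 highest and 5 lowest gene ends, members without a gene-end region in all 8 libraries, the 4 with most regions, the 6 distal regions with the highest lowest value, up to 8 regions per comparison and direction called on one side alone, and regions separate between all MUT and all WT; the other gene ends and regions were added after their values were seen. Of the 42 members 34 matched the start table, and all listed partner and marker genes but Skp1a matched the gene table. Alternatives were an equal number of peaks, thinning to the lowest depth, a −log10 q of at least 5, summit windows of 250 bp on either side, division by the library median, and leaving out each library. Replicate numbers, and peaks on chromosome Y, were compared after the data were seen. Numbers of peaks and recovered background stand for depth; total fragments were not used here. Python 3.11.15, numpy 2.4.6, pandas 2.3.3, scipy 1.17.1 and matplotlib 3.10.9 were used.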

Additional observations from a re-analysis of the deposited data

Results flagged for a closer look

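Of 76 groups of 4 libraries examined over 19 values, 4 held a library far from the other 3, where chance marks about 1 in 20 groups. At the Kdm2b gene end MUT T1 replicate 2 was at 5.67 and the other MUT libraries at 4.07, 4.17 and 4.29, and among the T2 libraries WT T2 replicate 1 was at 5.18 and the others at 4.07, 4.17 and 4.24. At the Mtf2 gene end MUT T1 replicate 1 was at 9 and the other MUT libraries at 10.9, 11.1 and 11.1. At the region 55.1 kb inside Kdm2b MUT T1 replicate 2 was at 13.9 and the other MUT libraries at 11.2, 11.5 and 11.6. MUT T1 replicate 2 and WT T2 replicate 1 are among the 3 libraries of lowest background, and the part of depth in these values was not tested.

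At 2 of the 19 values examined, both of Kdm2b regions, MUT and WT differed in opposite directions in T1 and T2, with no overlap. The share of all regions with this pattern was not computed. At the gene end the mean of MUT minus WT was 0.97 in T1 and −0.59 in T2. At the region 55.1 kb inside the span it was 2.40 in T1 and −1.90 in T2. These differences between T1 and T2 were not tested. Divided by the library median, the T2 values overlapped at both regions, at 0.524 and 0.569 in MUT and 0.637 and 0.507 in WT at the Kdm2b gene end, and 1.44 and 1.57 in MUT and 1.72 and 1.49 in WT at the other.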

How the results depend on the processing

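No paired analysis was possible because the results come from no test. Over 6 pairs of groups the deviations of same-numbered libraries correlated at 0.0158 to 0.0764 over the regions called in all 8, although some X-linked regions followed the number. Of 63 recomputed counts, 49 were within 1.5 times the reported one and 14 were not. The shares in brackets are those of all regions. With an equal number of peaks, WT T1 alone held 1 member region against MUT T1 (1.76%). MUT T2 alone held 3 (1.95%) and WT T2 alone 6 (1.65%). MUT T2 alone held 1 against MUT T1 (1.21%). WT T1 alone held 3 (2.17%) and WT T2 alone 7 (1.78%). All MUT held 0 against all WT (0.171%), and all T2 held 1 against all T1 (0.0441%). With thinning, WT T1 alone held 3 against WT T2 (2.86%). With a −log10 q of at least 5, MUT T1 alone held 4 against WT T1 (1.2%). WT T2 alone then held 1 against WT T1 (0.594%), and all MUT 2 against all WT (0.219%). With summit windows, WT T2 alone held 4 against WT T1 (0.91%). Divided by the library median, 3 regions were separate between all MUT and all WT. Leaving out 1 library at a time gave ranges of 4 to 14 (called in MUT T1 and not WT T1) and 5 to 18 (the reverse), 16 to 26 and 5 to 7 in T2, 1 to 10 and 5 to 18 for MUT T1 against MUT T2, and 10 to 21 and 5 to 9 for WT T1 against WT T2. For all MUT against all WT the ranges were 1 to 2 and 0 to 1, for all T1 against all T2 0 to 1 and 0 to 0. Separate fold enrichment ranged over 82 to 107, 97 to 114, 79 to 98 and 108 to 130 in the 4 comparisons of 2 groups, and over 2 to 6 and 3 to 18 in the 2 over all libraries. In the comparisons of 2 groups every library left out raised the counts of calls by more than 1.5 times, since a lone library meets the criteria more often by construction. Shares over all regions were not computed with a library left out. Regions called in all libraries numbered 142 to 148, and genes open at an end 41 to 42. The shallower libraries limit calls of weak regions.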

Other observations

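Of the member regions 17 (6.77%) were called in exactly 7 libraries, against 7.56% of all regions. A few of these were strong and missing from 1 list. A 332 bp region 62.7 kb inside Kmt2c was at 13.9 in MUT T1 replicate 1, 16.7 and 16.3 (MUT T2), 15.7 and 17.8 (WT T1), and 16.2 and 15.5 (WT T2), and was not called in MUT T1 replicate 2. These values are above every member gene end. A region 31.3 kb outside Mtf2, at 7.01 to 11.3 in 7 libraries, was also not called in MUT T1 replicate 2. One 34.2 kb outside Pcgf5, at 7.31 to 10.9 in 7 libraries, was not called in WT T2 replicate 2. These regions were chosen after their values were seen.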
